A study of Mus musculus with 10 samples.

Results

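Gasdermins, inflammasome components and necroptosis genes were followed as a group of 10 genes in colonic intestinal epithelial cells (IECs) of WT and RhoB-/- mice. The members were taken by name from the table of 55487 genes. They are the gasdermins Gsdmc2, Gsdmc3, Gsdmc4 and Gsdmd, the caspases Casp1, Casp4 and Casp8, the inflammasome sensor Nlrp6, and Ripk3 and Mlkl of necroptosis. Each was listed once, and each had a level of at least 9.79 TPM in every library, where TPM is a gene's share of all transcripts after division by length, scaled to a fixed total, so that none passed the filter on low values through 1 genotype alone.

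The libraries came from untreated C57BL/6J mice, 5 of them WT and 5 RhoB-/-, with 1 library per mouse. RhoB-/- mice are homozygous knockouts of Rhob, which encodes a small GTPase. Mice were 6 to 8 weeks old unless stated otherwise. The methods name a supplier for the WT males and another centre for the knockout, and do not say for these libraries whether the mice were littermates, so that genotype and origin cannot be told apart. The cells were shaken off the opened colon in EDTA.

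Gasdermins are proteins that stay inactive until a protease cuts them. The freed part then forms pores in the cell membrane, and the cell dies by pyroptosis. Inflammasomes are complexes in which a sensor such as NLRP6 or NLRC4, often through the adaptor ASC (encoded by Pycard), activates caspase-1, which cuts gasdermin D and matures interleukin-18, a cytokine that colonic epithelium makes at rest. Caspase-11, encoded by Casp4 in mice, senses bacterial lipopolysaccharide in the cytosol and also cuts gasdermin D. In necroptosis RIPK3 phosphorylates MLKL, which breaks the membrane, and caspase-8 holds this pathway back. The Gsdmc genes are a mouse family of related copies, expressed in the differentiated cells of the gut epithelium.

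The sequences of the Gsdmc copies are shown because their likeness limits how well their levels can be told apart. Gsdmc2, Gsdmc3 and Gsdmc4 lie side by side on the minus strand of chromosome 15 (GRCm38, GENCODE M21), at 63824346 to 63845177, 63857724 to 63878558 and 63891264 to 63912297. The first 90 coding bases of each gene are printed 5′ to 3′, with the 2 positions at which the copies differ in capitals.
Gsdmc2: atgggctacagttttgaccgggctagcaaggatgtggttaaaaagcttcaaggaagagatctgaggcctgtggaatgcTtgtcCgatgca
Gsdmc3: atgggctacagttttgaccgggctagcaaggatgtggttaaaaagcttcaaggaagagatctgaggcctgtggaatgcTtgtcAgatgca
Gsdmc4: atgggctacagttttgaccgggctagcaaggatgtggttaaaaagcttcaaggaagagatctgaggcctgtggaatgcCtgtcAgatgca
Over their whole coding sequences of 1440 bases, Gsdmc2 and Gsdmc3 were 97.1% identical, and Gsdmc4 was 92.8% identical to either of them. Of all stretches of 150 bases, the length of 1 read, 14.9% of those in Gsdmc2 transcripts, 17.99% in Gsdmc3 and 8.83% in Gsdmc4 occurred unchanged in a transcript of another gene. The genes that shared these stretches belonged to the same family. A read that falls there does not by itself tell the copies apart. The reads were sequenced in pairs, so a mate outside such a stretch can settle the copy, and RSEM divides the rest. The sum of the family is therefore firmer than the level of each copy. Gsdmd, at 75862327 to 75867408 on the same chromosome, shared no stretch of 150 bases with another gene and was 48.8% identical to Gsdmc2 in its coding sequence. Of the other members, none shared a stretch of this length.

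In RhoB-/- mice 9 of the 10 genes were higher and 0 were lower, at a Benjamini-Hochberg adjusted p below 0.05 over the 12870 tested genes (limma, on log2(TPM + 1)). Of all tested genes, 21.2% were called by the same rule, 7.73% as higher and 13.5% as lower. By another rule, a p below 0.05 before adjustment with a change of over 1.5 times, 8 of the 10 genes were higher, against 6.37% of all tested genes. The values of the 5 RhoB-/- libraries lay above all 5 WT libraries for 8 of the 10 genes, against 5.97% of tested genes. The median log2 fold change of the 10 genes was 1.09, and that of all tested genes was -0.13. All changes below are on the log2(TPM + 1) scale, in which the typical gene therefore stood slightly below 0. The smallest change and the only one without a call was that of Casp1.

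**Figure D1:**
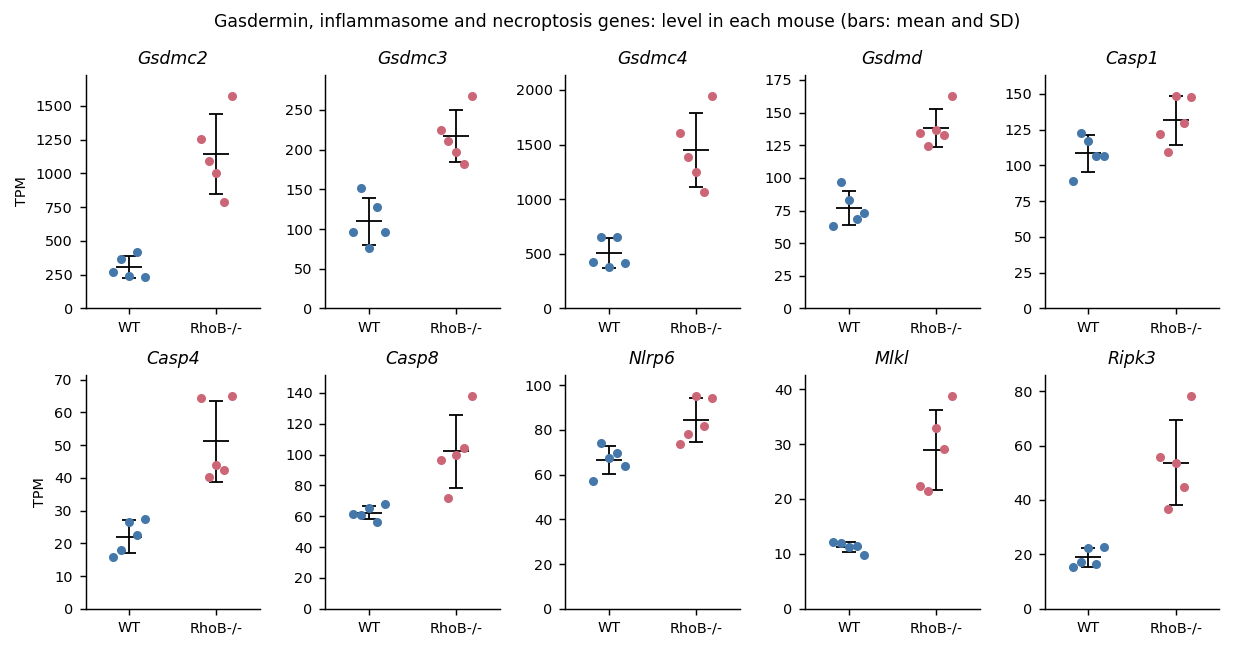
Level of each of the 10 genes in TPM (vertical axis, from 0), with 1 point per mouse and the mean and SD of 5 mice as bars. The WT and RhoB-/- points do not overlap for any gene except Casp1 and Nlrp6.

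The checks of the libraries that touch these values were the following. Rhob had 170.5 to 388.7 TPM in WT mice and 0.09, 0.10, 0.35 and 0.57 TPM in RhoB-/- replicates 1 to 4, but 110.9 TPM in the library labelled RhoB-/- replicate 5. That library stayed in its labelled group. Of the member, pathway and transcription factor genes named below, Nlrp6, Ninj1, Naip1, Nlrc4, Ticam1 and Irf1 lost their calls without it. Epithelial markers were abundant, as Epcam had 968.8 to 1639 TPM in the 10 libraries. Of the 10 epithelial markers, 4 were higher in RhoB-/- mice (Krt20, Vil1, Cdx2 and Cldn7) and 0 were lower. Epcam was not called. The 22 leukocyte markers added up to 14.9 to 28.5 TPM in WT and 71.3 to 92.2 TPM in RhoB-/- libraries. Of the 10 leukocyte markers above the filter, 9 were higher in RhoB-/- mice, among them Ptprc, Cd3e and Gzma. None of the 22 was at 0 in every library, although Cd4 and Flt3 did not exceed 0.12 TPM in any WT library. The 12 stromal markers added up to 8.93 to 12.2 TPM in WT and 13.4 to 55.3 TPM in RhoB-/- libraries. The highest sum was in the library labelled RhoB-/- replicate 5, where Dcn had 24.5 and Vim 18.6 TPM. Mitochondrial genes held 17.5% to 26.5% of the TPM in WT and 10.3% to 22.4% in RhoB-/- libraries. In the list of 10 surface colonocyte markers, 6 were higher in RhoB-/- mice, including Krt20 with a log2 fold change of 1.17. Several of the 10 genes are also expressed by leukocytes, and the part of these cell types in the changes below was not tested. In bulk RNA, more cells of a type and more RNA per cell cannot be told apart.

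The Gsdmc genes were the most abundant members, and Gsdmc2 and Gsdmc4 had the largest log2 changes of the 10. Gsdmc2 had 269.6, 364.0, 243.1, 421.1 and 229.7 TPM in WT replicates 1 to 5 and 1258, 1092, 1004, 790.6 and 1574 TPM in RhoB-/- replicates 1 to 5. The lowest RhoB-/- library was well above the highest WT library. The mean rose from 305.5 ± 83.3 (SD, n = 5) to 1144 ± 293.8 TPM (SD, n = 5), a log2 fold change of 1.904 (limma, SE, the standard error, 0.21, adjusted p = 1.07e-04).
Gsdmc4 had 426.1, 658.4, 380.8, 655.1 and 414.9 TPM in WT against 1609, 1384, 1247, 1070 and 1946 TPM in RhoB-/- mice. Its groups were again apart, with a log2 fold change of 1.53 (limma, SE 0.20, adjusted p = 4.55e-04). With a mean of 1451 TPM it was the 68th most abundant of all genes in RhoB-/- mice, whereas it was the 222nd in WT mice.
Gsdmc3, the least abundant of the 3, had 96.4, 151.2, 75.7, 128.0 and 96.4 TPM in WT against 225.2, 210.6, 197.4, 182.2 and 267.8 TPM in RhoB-/- mice, or a log2 change of 1.01 (limma, SE 0.18, adjusted p = 0.00284). The summed level of Gsdmc, Gsdmc2, Gsdmc3 and Gsdmc4, to which the division of reads between copies matters less, was 703.2 to 1215 TPM in WT and 2068 to 3817 TPM in RhoB-/- libraries. The mean sum was 927.4 ± 248.3 and 2850 ± 669.9 TPM (SD, n = 5 each), a ratio of 3.07.

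The copies did not rise by the same amount. The log2 ratio of Gsdmc3 to Gsdmc2 within a library was -1.71 to -1.24 in WT and -2.55 to -2.11 in RhoB-/- mice, a difference of -0.90 between the group means (exact permutation test over all labellings of the libraries, two-sided p = 0.00794, adjusted p = 0.0132 over 5 ratios). The smallest p that 5 against 5 allow is 0.00794. The log2 ratio of Gsdmc4 to Gsdmc2 differed by -0.38 (exact permutation test, two-sided p = 0.00794, adjusted p = 0.0132). Gsdmc2 took 30.9% to 34.7% of the family sum in WT and 38.2% to 41.2% in RhoB-/- libraries. Gsdmc3 took 10.5% to 13% and 7.02% to 8.81%. Since these copies share stretches of sequence, such shares carry the uncertainty of how their reads were assigned.
The fourth coding copy, Gsdmc, was less alike, with 81.6% to 84.0% identity to Gsdmc2, Gsdmc3 and Gsdmc4 in its coding sequence. Gsdmc was low in WT mice at 0.36 to 10.8 TPM and had 14.5 to 65.4 TPM in RhoB-/- mice, or a log2 change of 2.74 (limma, SE 0.55, adjusted p = 0.00529). Gsdmcl1, Gsdmcl2 and Gsdmcl-ps lie on the other strand of the same cluster and have no annotated coding transcript. They were looked up after the values were seen. Gsdmcl2 and Gsdmcl-ps were also higher, with log2 fold changes of 1.12 and 1.48 (limma, adjusted p = 0.00256 and 0.00282). Gsdmcl1 did not exceed 0.31 TPM in any library and was not tested. The remaining gasdermins were low or listed at 0. Gsdme had 8.95 ± 1.31 and 11.3 ± 2.25 TPM (SD, n = 5 each; limma, adjusted p = 0.161). Gsdma3 was listed at 0 in every library.

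Gsdmd, the executor of pyroptosis downstream of caspase-1 and caspase-11, had 63.1, 96.6, 83.0, 68.8 and 73.4 TPM in WT against 134.2, 124.7, 136.5, 133.2 and 162.9 TPM in RhoB-/- mice. The groups did not overlap. The mean rose from 77.0 ± 13.2 to 138.3 ± 14.5 TPM (SD, n = 5 each), a log2 fold change of 0.85 (limma, SE 0.13, adjusted p = 9.65e-04). This was less than for Gsdmc2, as the log2 ratio of Gsdmd to Gsdmc2 differed by -1.06 between the groups (exact permutation test, two-sided p = 0.0159, adjusted p = 0.0198). The ratio in 1 WT library, replicate 4 at -2.597, lay inside the range of the RhoB-/- libraries. Ninj1, which encodes the protein that ruptures the membrane of dying cells, had 18.7 ± 1.66 TPM in WT against 13.3 ± 2.97 TPM in RhoB-/- mice (SD, n = 5 each). Its log2 fold change was -0.48 (limma, adjusted p = 0.0269), but the call was lost in 9 of 19 alternative settings.

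The inflammatory caspases are neighbours on chromosome 9 and changed unequally. Casp1 lies at 5298517 to 5307265 and Casp4 at 5308828 to 5336783, both on the plus strand with 1562 bases between them. Casp4 had 15.8, 17.8, 26.4, 22.7 and 27.3 TPM in WT against 64.5, 40.1, 43.9, 42.3 and 65.0 TPM in RhoB-/- mice, without overlap. Its log2 fold change was 1.18 (limma, SE 0.19, adjusted p = 0.0015).
Casp1 had 89.3, 122.9, 117.1, 106.5 and 106.3 TPM in WT against 121.9, 109.5, 148.7, 129.5 and 147.8 TPM in RhoB-/- mice, so that its groups overlapped. Its log2 fold change was 0.27 (95% interval 0.01 to 0.54, limma, adjusted p = 0.124). The interval lay just above 0, but Casp1 missed the threshold after adjustment over all tested genes. It passed the threshold when fold changes were recentred on their median or libraries were quantile normalized.
The log2 ratio of Casp4 to Casp1 rose from -2.27 ± 0.31 to -1.37 ± 0.33 (SD, n = 5 each), with no overlap between the groups (difference 0.90, exact permutation test, two-sided p = 0.00794, adjusted p = 0.0132 over 5 ratios). Casp1 therefore remained the more abundant of the pair in every library, by a smaller margin in RhoB-/- mice.

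Promoter sequences, from RefSeq on GRCm38.p6, are shown for the neighbours Casp4 and Casp1 and for Casp8, as examples with and without the motif marked. They run 5′ to 3′ from 250 bases before to 50 bases after the annotated start, at chr9:5308599-5308898 (plus strand, the first of 2 starts listed for Casp4), chr9:5298267-5298566 (plus strand) and chr1:58802252-58802551 (plus strand). Capitals mark matches to AANNGAAA on either strand, the core that interferon regulatory factors bind.
Casp4: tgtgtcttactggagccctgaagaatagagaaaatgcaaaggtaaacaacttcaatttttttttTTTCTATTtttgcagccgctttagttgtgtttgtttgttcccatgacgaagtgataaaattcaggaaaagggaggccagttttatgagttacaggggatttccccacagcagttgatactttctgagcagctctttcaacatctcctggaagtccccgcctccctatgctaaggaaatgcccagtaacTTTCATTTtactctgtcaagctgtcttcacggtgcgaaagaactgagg
Casp1: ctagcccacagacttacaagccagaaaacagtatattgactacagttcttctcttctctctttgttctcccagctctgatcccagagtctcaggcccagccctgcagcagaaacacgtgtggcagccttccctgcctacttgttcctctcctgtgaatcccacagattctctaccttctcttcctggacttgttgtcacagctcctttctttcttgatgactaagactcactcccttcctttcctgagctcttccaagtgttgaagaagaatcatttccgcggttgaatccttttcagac
Casp8: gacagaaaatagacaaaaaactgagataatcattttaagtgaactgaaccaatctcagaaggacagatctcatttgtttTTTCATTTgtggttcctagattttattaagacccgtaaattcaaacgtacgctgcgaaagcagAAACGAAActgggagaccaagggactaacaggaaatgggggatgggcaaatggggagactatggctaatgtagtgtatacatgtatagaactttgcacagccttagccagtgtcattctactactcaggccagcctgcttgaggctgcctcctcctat
The table held promoters of 7 of the 10 genes, leaving Gsdmc2, Gsdmc4 and Gsdmd. AANNGAAA occurred in 2 of the 7, Casp4 and Casp8, against 23.9% of all 32851 promoters in the table. It was not found in the windows of Ripk3 and Mlkl, whose log2 changes of 1.43 and 1.25 were above the 1.18 of Casp4 and the 0.68 of Casp8, nor in those of Casp1, Nlrp6 and Gsdmc3. The longer interferon-stimulated response element (GAAA, any 2 bases, GAAA), which overlaps that core, and the STAT site TTCNNNGAA occurred in 0 of the 7, against 3.4% and 8.3% of all promoters. The kB motif, searched on both strands, occurred in Casp4 alone, against 8.5% of all promoters. These matches describe the letters of the windows only.

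Casp8 and the necroptosis pair were higher without overlap. Ripk3 had 15.5, 17.0, 22.4, 16.6 and 22.8 TPM in WT against 55.7, 36.5, 53.4, 44.7 and 78.2 TPM in RhoB-/- mice. Its log2 fold change was 1.43 (limma, SE 0.19, adjusted p = 3.81e-04).
Mlkl was the least abundant member. In WT mice it had 12.1, 11.9, 11.3, 11.4 and 9.79 TPM. In RhoB-/- mice it had 22.4, 21.4, 32.9, 29.1 and 38.7 TPM, or a log2 change of 1.25 (limma, SE 0.15, adjusted p = 2.40e-04). The log2 ratio of Mlkl to Ripk3 was -0.68 ± 0.34 in WT and -0.86 ± 0.28 in RhoB-/- mice (SD, n = 5 each). A difference between the groups in this ratio was not detected (exact permutation test, two-sided p = 0.373).
Casp8, whose product starts apoptosis and restrains necroptosis, had 61.3, 61.0, 65.3, 56.4 and 67.7 TPM in WT against 96.6, 71.9, 100.02, 104.4 and 137.9 TPM in RhoB-/- mice. Its log2 fold change was 0.68 (limma, SE 0.15, adjusted p = 0.00879). Among the members without overlap, its lowest RhoB-/- library, replicate 2, came closest to the WT range.

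**Figure D2:**
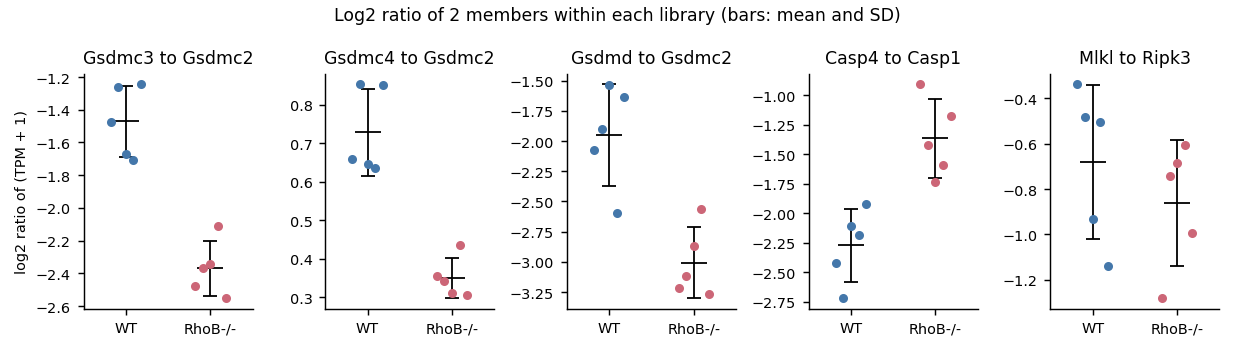
Log2 ratio of (TPM + 1) of 2 genes within each library (vertical axis), 1 point per mouse with mean and SD of 5 mice. The ratios of Gsdmc3 and Gsdmc4 to Gsdmc2 lie lower and the ratio of Casp4 to Casp1 lies higher in all 5 RhoB-/- libraries, whereas Mlkl to Ripk3 overlaps.

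Nlrp6, an epithelial inflammasome sensor linked to mucus secretion and the microbiota, had a small change. It had 57.4, 74.2, 67.3, 69.8 and 63.9 TPM in WT against 73.6, 78.1, 95.2, 81.7 and 94.5 TPM in RhoB-/- mice. Only the lowest RhoB-/- value, in replicate 1, fell inside the WT range. The log2 fold change was 0.34 (limma, SE 0.11, adjusted p = 0.0452), and the call was lost in 12 of 19 alternative settings, among them the fit without the library labelled RhoB-/- replicate 5.

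In WT mice the members ranked, from the highest mean TPM, as Gsdmc4, Gsdmc2, Gsdmc3, Casp1, Gsdmd, Nlrp6, Casp8, Casp4, Ripk3 and Mlkl. The values of neighbours in this order overlapped, except between Gsdmc2 and Gsdmc3, between Casp8 and Casp4 and between Ripk3 and Mlkl. In RhoB-/- mice Gsdmd stood before Casp1, Casp8 before Nlrp6 and Ripk3 before Casp4, but the values of each of these pairs overlapped.
The order of the RhoB-/- libraries differed between the genes. The library labelled RhoB-/- replicate 5 was the highest of its group for 8 of the 10 genes, and replicate 2 was the lowest for 6. Casp1 and Nlrp6 were highest in replicate 3. The median deviation of the 10 genes from the WT mean was 1.44 in replicate 5 and 0.87 to 1.002 in the other RhoB-/- libraries (log2 scale). Gsdmc2, Gsdmc3 and Gsdmc4 ranked the RhoB-/- libraries in the same order, with replicate 4 the lowest. Casp4 and Ripk3 shared another order, with replicate 2 the lowest, which was also that of the surface colonocyte marker Krt20. Without the library labelled RhoB-/- replicate 5, 8 of the 10 genes were called higher, against 719 of the 12850 genes tested in that fit.

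**Figure D3:**
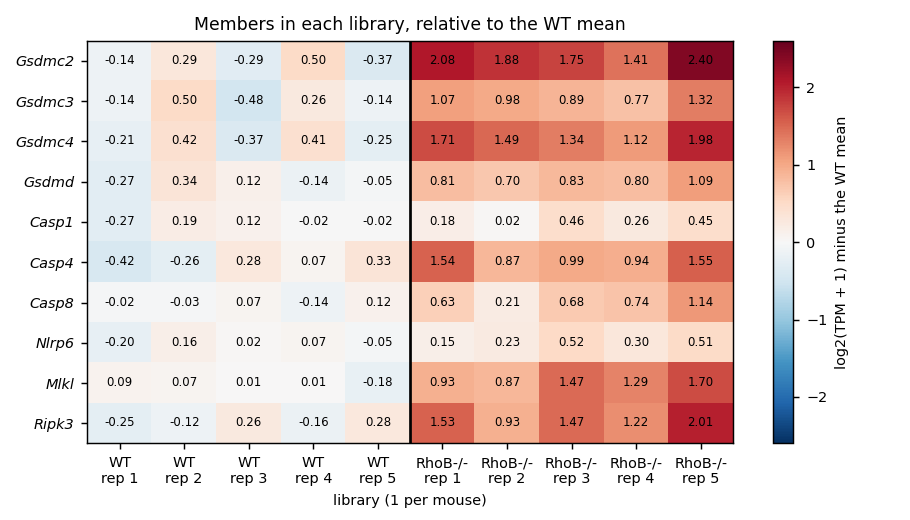
Log2(TPM + 1) of each gene (rows) in each library (columns) minus the WT mean of that gene, as colour and number. RhoB-/- replicate 5 has the highest median, 1.44, and Casp1 and Nlrp6 stay within 0.52 of the WT mean in every library.

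For each member the 3 tested genes with the most similar levels over the 10 libraries were found by Pearson's r on log2(TPM + 1), a description in which the best of 12869 genes is high by construction and the difference between genotypes adds to r. The closest gene to each of Gsdmc2, Gsdmc3 and Gsdmc4 was another of these copies. The r was 0.995 between Gsdmc2 and Gsdmc4 and 0.983 between Gsdmc3 and Gsdmc4. Mov10, which encodes an RNA helicase with antiviral activity, came next for Gsdmc2 and Gsdmc4 at 0.984, ahead of Gsdmc3. Mlkl was closest to Ifi35, an interferon-induced gene (0.982), and Ripk3 to Trim40, a ubiquitin ligase gene of the gut (0.995). Gsdmd was closest to Ttc22, Slc44a4 and Tapbp, of which Tapbp encodes tapasin of the peptide-loading complex (0.987). Casp1 was closest to Aldoa, a glycolysis gene, and to the epithelial marker Epcam (0.988). Krt20 was among the 3 genes closest to Casp8 (0.977).

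The other genes of these pathways were taken from a list of 59, of which 43 passed the filter on low values. Of these, 12 were higher, 5 were lower and 26 were not called, with a median log2 fold change of 0.19. Among all tested genes 7.73% were higher and 13.5% lower, so lower genes were no more frequent in the list than elsewhere. These shares are the background for the counts of each group below. The largest change in the list was that of Zbp1, which encodes the sensor of Z-form nucleic acids that activates RIPK3. Zbp1 had 8.19, 11.1, 12.99, 5.68 and 7.90 TPM in WT against 99.1, 92.7, 126.7, 110.0 and 164.7 TPM in RhoB-/- mice, or a log2 change of 3.57 (limma, SE 0.21, adjusted p = 5.23e-07). No library of one group came near those of the other.

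Of the 16 genes of necroptosis and death receptor signalling other than members, 6 were higher, 1 was lower and 9 were not called. Tnfsf10, which encodes the death ligand TRAIL, had 1.996 ± 0.60 TPM in WT against 6.35 ± 1.60 TPM in RhoB-/- mice (SD, n = 5 each), a log2 fold change of 1.29 (limma, adjusted p = 6.08e-04). Its receptor gene Tnfrsf10b was lower instead, with a log2 fold change of -0.67 (limma, adjusted p = 0.0258), a call lost in 9 of 19 alternative settings. The death receptor genes Fas and Tnfrsf1a had log2 fold changes of 0.74 and 0.57, and Tlr3 and its adaptor Ticam1, which can also engage RIPK3, had 0.74 and 0.37 (limma, adjusted p from 0.00328 to 0.0252 for these 4 genes). The call of Ticam1 was lost in 6 of 19 alternative settings. The shared scaffold genes were not called. Ripk1 had 18.2 ± 2.12 and 20.7 ± 3.28 TPM, Fadd 6.80 ± 1.499 and 5.54 ± 1.21 TPM, and Cflar, which encodes the caspase-8 partner cFLIP, 18.1 ± 3.94 and 23.0 ± 3.69 TPM (SD, n = 5 each; limma, adjusted p = 0.339, 0.273 and 0.122). Tnfaip3, a brake on NF-kB and cell death, had 63.3 and 67.1 TPM in WT replicates 3 and 5 and 22.8 to 23.7 TPM in the other WT libraries, against 21.6 to 39.6 TPM in RhoB-/- mice (limma, adjusted p = 0.51).

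**Figure D4:**
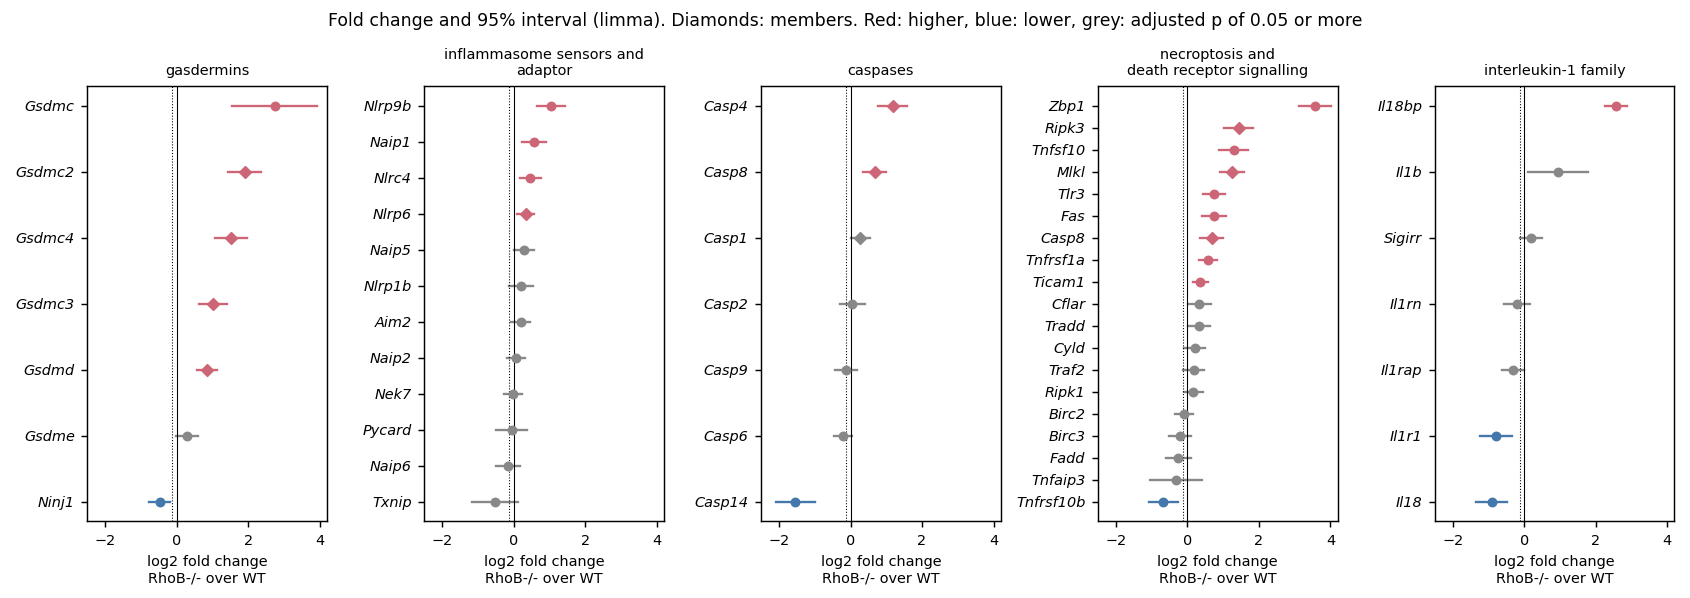
Log2 fold change of RhoB-/- over WT with its 95% interval (horizontal axis, limma) for tested genes of 5 groups, with members as diamonds, red for higher, blue for lower and grey for genes that were not called. The dotted line is the median of all tested genes, -0.13. Zbp1 and Gsdmc lie farthest to the right and Casp14 farthest to the left.

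Of the 11 tested inflammasome sensors, adaptors and partners other than Nlrp6, 3 were higher and none was lower. Nlrp9b, a sensor of viral RNA in intestinal epithelium, had 5.11 ± 1.46 TPM in WT against 11.5 ± 2.38 TPM in RhoB-/- mice (SD, n = 5 each), without overlap (log2 fold change 1.04, limma, adjusted p = 0.00194). Naip1 and Nlrc4, which together detect bacterial secretion systems, had log2 fold changes of 0.57 and 0.47 (limma, adjusted p = 0.0267 and 0.0323), and their calls were lost in 7 and 11 of 19 alternative settings. Their relatives Naip2, Naip5 and Naip6, of which the last 2 detect flagellin, were not called (limma, adjusted p = 0.763, 0.14 and 0.491). The Naip genes are a family of related copies, and how far they share reads was not measured here. Aim2, the sensor of cytosolic DNA, had 47.6 ± 5.74 and 54.9 ± 8.30 TPM (SD, n = 5 each; limma, adjusted p = 0.255).
The adaptor Pycard was abundant and was not called, with 150.03 ± 8.26 TPM in WT against 151.4 ± 58.2 TPM in RhoB-/- mice (SD, n = 5 each). Its RhoB-/- values were 123.0, 96.9, 249.3, 136.9 and 151.1 TPM, and replicate 3 stood apart. The log2 fold change was -0.06 (95% interval -0.50 to 0.38, limma, adjusted p = 0.857), and its sign depended on the centring. Txnip, which encodes a redox protein that binds NLRP3, was at 829.2 and 918.2 TPM in WT replicates 3 and 5, the same libraries in which Tnfaip3 was high, and at 313.6 to 361.4 TPM in the other WT libraries (limma, adjusted p = 0.23). Nlrp3, the best known sensor of myeloid cells, stayed at or below 0.15 TPM in every library.

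Of the 6 tested caspases other than members, 1 was higher, 1 was lower and 4 were not called. The lower one was Casp14, known for its part in the differentiation of the epidermis. It had 3.99, 11.4, 4.46, 4.80 and 5.85 TPM in WT against 2.3, 1.16, 1.28, 1.32 and 0.69 TPM in RhoB-/- mice, or a log2 change of -1.54 (limma, SE 0.25, adjusted p = 0.00171).

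Of the 7 tested genes of the interleukin-1 family, 1 was higher, 2 were lower and 4 were not called. Il18 had 51.7, 113.8, 100.3, 89.3 and 91.0 TPM in WT against 46.6, 52.9, 38.2, 38.1 and 53.6 TPM in RhoB-/- mice. WT replicate 1 lay among the RhoB-/- values, and the other 4 WT libraries lay above them. The log2 fold change was -0.91 (limma, SE 0.20, adjusted p = 0.00784). Il18bp, which encodes the secreted protein that binds and blocks interleukin-18, had 1.82, 1.92, 1.78, 1.47 and 1.46 TPM in WT against 14.4, 10.7, 19.3, 14.9 and 16.4 TPM in RhoB-/- mice, or a log2 change of 2.56 (limma, SE 0.14, adjusted p = 3.87e-07). The groups were far apart. Il1r1, the interleukin-1 receptor gene, had a log2 fold change of -0.79 (limma, adjusted p = 0.0192), a call lost without the filter on low values (limma, adjusted p = 0.0553). Il1b, a product of myeloid cells, had 0.11 to 1 TPM in WT and 0.15 to 4.67 TPM in RhoB-/- libraries (limma, adjusted p = 0.0948), and Il1rn, which encodes the receptor antagonist, was not called (limma, adjusted p = 0.388).

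**Figure D5:**
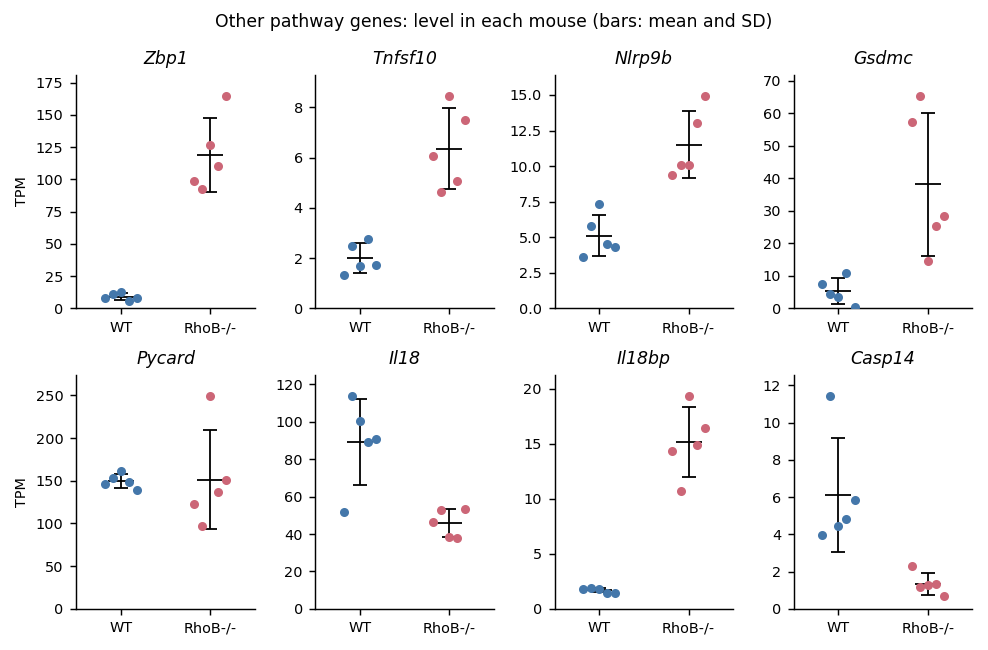
Level in TPM (vertical axis, from 0) of 8 further pathway genes, 1 point per mouse with mean and SD of 5 mice. Zbp1, Tnfsf10, Nlrp9b, Gsdmc and Il18bp lie higher and Casp14 lies lower in all RhoB-/- mice, while Il18 overlaps through 1 WT mouse and Pycard overlaps fully.

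Of 12 transcription factor genes that act on such genes, 5 were higher in RhoB-/- mice and none was lower. Among them Irf7, Stat2 and Irf9, which mediate interferon responses, had log2 fold changes of 3.05, 2.03 and 1.55 (limma, adjusted p from 1.97e-06 to 6.53e-06), and Irf1 had 0.66 (limma, adjusted p = 0.0221), a call lost in 5 of 19 alternative settings. Irf2, which is needed for Gsdmd expression, had 34.9 ± 7.20 TPM in WT against 37.0 ± 7.64 TPM in RhoB-/- mice (SD, n = 5 each; limma, adjusted p = 0.732). Stat6, which carries the interleukin-4 and interleukin-13 signals known to induce Gsdmc genes, was not called either (log2 fold change 0.28, limma, adjusted p = 0.167), but was called with recentring (limma, adjusted p = 0.0186). Il4ra, the gene of a receptor chain for these cytokines, was higher without overlap (log2 fold change 0.88, limma, adjusted p = 0.00557). Il13ra1, the gene of another such chain, was not called (log2 fold change 0.04, limma, adjusted p = 0.854). Of the 9 tested genes of tuft cells and of type 2 responses, 5 were higher and 0 were lower. The 4 that were not called were Il13ra1, Dclk1, Muc2 and Tff3. Retnlb, a goblet cell product of such responses, had 66.0 to 297.5 TPM in WT and 1208 to 2884 TPM in RhoB-/- libraries. Whether type 2 signals had a part in the Gsdmc changes was not tested.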

How the data were processed

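Transcript levels in colonic IECs of 5 WT and 5 RhoB-/- mice were used, with groups taken from the sample titles. The authors aligned trimmed reads (SeqPrep, Sickle) by HISAT2 and deposited TPM values from RSEM, with 2 decimals. The authors also named StringTie, edgeR and the build GRCm38.p6 in their processing notes. TPM keeps no depth, so the number of reads behind a value, and its counting error, are unknown. A gene that takes much of a library lowers the others.
Genotypes were compared with limma 3.58.1 (R 4.3.3, trend) on log2(TPM + 1) over the 12870 genes that averaged 1 TPM or more, and called at an adjusted p below 0.05 (Benjamini-Hochberg). The procedure was tested on simulated data. Ratios within a library were compared with exact permutation tests, two-sided. Positions and transcripts were from GENCODE M21. Named genes were the members, the genes of the pathway and transcription factor lists, the 3 genes most like each member, and Rhob. Markers and type 2 response genes named as examples, and Gsdmcl1, Gsdmcl2 and Gsdmcl-ps, fall outside this rule and were chosen after their values were seen. Values of some listed genes are not reported here. The members and lists were chosen with earlier results of these data known. Alternatives were a pseudocount of 0.1, no filter, recentring, quantile normalization, leaving out mitochondrial genes, a replicate block, limma without trend, a rule of unadjusted p below 0.05 and over 1.5-fold change, omission of each library in turn and, chosen after seeing the data, WT replicates 3 and 5 left out.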

Additional observations from a re-analysis of the deposited data

Results flagged for a closer look

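Among 102 groups of 5 mice, 5 held a value far from the other 4 by Dixon's ratio, and chance gives about 5. The widest gap was that of Rhob, at 110.87 TPM in the library carrying the label RhoB-/- replicate 5. Aim2 at 69.25 TPM and Irf2 at 50.35 TPM were also highest in that library. Casp14 was highest in WT replicate 2 at 11.43 TPM, and Fadd in RhoB-/- replicate 3 at 7.68 TPM. Among the 10 genes described here, no value met this criterion.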

How the results depend on the processing

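Under all 19 alternatives Gsdmc2, Gsdmc3, Gsdmc4, Gsdmd, Casp4, Casp8, Mlkl and Ripk3 kept their direction and their call, and 8 to 10 of the 10 genes were called higher and 0 lower. Of the pathway list, 8 to 14 were higher and 3 to 5 lower with 1 library left out. Recentring gave 20 higher pathway genes, no filter gave 2 lower ones, and leaving out WT replicates 3 and 5 gave 3 lower ones. Over all genes, 995 were higher and 1734 lower (36.5% higher), which became 2010 higher with recentring (55.0% higher), 1587 higher with quantile normalization, 3729 lower without mitochondrial genes (22.8% higher) and 1072 lower with the unadjusted rule; with 1 library left out there were 719 to 1154 higher and 853 to 2868 lower genes. The cause of these shifts was not tested. Same-numbered mice did not deviate together (correlations of -0.09 to 0.07). This cannot show that they were unpaired, and the labels do not say whether the replicate numbers pair the mice. A replicate block gave 8 higher members, and 836 higher and 1059 lower genes over all. Exact permutation within replicate numbers, whose smallest p is 0.0625, left the differences at -0.90 (Gsdmc3 to Gsdmc2), -0.38 (Gsdmc4 to Gsdmc2), -1.06 (Gsdmd to Gsdmc2) and 0.90 (Casp4 to Casp1), with no call possible. Among genes that were not called, the Pycard log2 fold change turned sign with recentring (0.05624), and values ranged from -0.256 to 0.0826 for Pycard and from -0.0278 to 0.178 for Irf2 with 1 library left out. Without WT replicates 3 and 5, Tnfaip3 became 0.27 and Txnip 0.0240. No member was below the filter, so the tests planned for such genes were not run.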
